A study of Mus musculus with 8 samples.

Results

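Across the mouse liver genome, 8189 short runs of neighbouring HpaII sites had an intermediate to high score for missing methylation (m-score). In them the outermost sites were on average more methylated than the sites between. These runs, called clusters here, were built from autosomal CCGG sites that were listed for all 8 livers and had at least 10 tags in the MspI reference, joined where neighbours lay at most 500 bp apart. A cluster was taken when it held 5 to 19 sites and had a mean m-score from 50 to below 75 over the 8 livers. Lower m-scores stand for more methylation, with 0 for a site without HpaII tags. Judged by its values, the score is an angle set by HpaII tags and MspI tags scaled to the library. A score of 50 thus stands for equal numbers of both and not for 50% methylation, and sites with MspI tags stay below 100. How far a score below 100 reflects remaining methylation was not tested. The first and the last site of a cluster are its edge sites and all others are its core sites. The 8189 clusters are 39.6% of the 20674 autosomal clusters of 5 or more sites, and they hold 76137 sites, 59759 core and 16378 edge. HELP-tagging, a sequencing assay of HpaII cutting, had been applied to livers of C57BL/6J mice. The diet of 4 mice was high in fat with lingonberries added, and that of the other 4 was high in fat only (HFD). Mice of both groups thus ate the high-fat diet, and the age of the mice is not given in the sources used here. The comparison between the groups asked whether the berry supplement went with a different methylation pattern.

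Methylation of mammalian DNA sits on the cytosine of CpG and is copied at replication by the maintenance methyltransferase DNMT1. Stretches rich in CpG, many of them around gene starts, are usually kept free of it, while the surrounding DNA is mostly methylated, so that a border lies at each end of such a stretch. HpaII cuts CCGG only when its central CpG is unmethylated, and MspI cuts CCGG in either state, so HpaII tags relative to MspI tags read the state of each site. Liver DNA came from all cells of the tissue, so a site that is methylated in part of the cells cannot be told apart from one that is partly methylated in all of them.

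Genes were assigned to the clusters by sequence. RefSeq promoter windows of mouse build GRCm38.p6, each with 250 bases before and 50 after a gene start, were matched to the files by the exact spacing of their CCGG sites. The sequences below are the 250 bases before the start of 6 genes, taken from RefSeq and printed 5′ to 3′ on the strand of the gene, with each CCGG, the HpaII and MspI cutting sequence, in capitals. The first 4 belong to clusters with an edge site near the methylated end, and the other two to clusters whose core lay below the edge.
Il6ra: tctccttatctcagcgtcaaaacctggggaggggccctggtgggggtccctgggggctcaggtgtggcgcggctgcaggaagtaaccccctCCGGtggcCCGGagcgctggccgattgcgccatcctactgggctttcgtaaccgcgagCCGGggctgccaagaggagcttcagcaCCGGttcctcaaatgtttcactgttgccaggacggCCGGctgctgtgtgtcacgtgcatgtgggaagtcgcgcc
Mgll: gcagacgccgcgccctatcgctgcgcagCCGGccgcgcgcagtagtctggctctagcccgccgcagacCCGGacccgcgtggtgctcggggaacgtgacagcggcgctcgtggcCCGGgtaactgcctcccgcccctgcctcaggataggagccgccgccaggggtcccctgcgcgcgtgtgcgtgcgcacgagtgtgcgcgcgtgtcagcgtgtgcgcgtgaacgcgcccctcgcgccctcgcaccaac
Snai1: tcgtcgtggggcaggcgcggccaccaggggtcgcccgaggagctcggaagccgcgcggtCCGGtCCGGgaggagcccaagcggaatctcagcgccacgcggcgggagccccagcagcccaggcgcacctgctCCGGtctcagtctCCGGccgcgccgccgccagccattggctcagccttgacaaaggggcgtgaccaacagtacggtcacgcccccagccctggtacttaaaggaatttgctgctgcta
Gata5: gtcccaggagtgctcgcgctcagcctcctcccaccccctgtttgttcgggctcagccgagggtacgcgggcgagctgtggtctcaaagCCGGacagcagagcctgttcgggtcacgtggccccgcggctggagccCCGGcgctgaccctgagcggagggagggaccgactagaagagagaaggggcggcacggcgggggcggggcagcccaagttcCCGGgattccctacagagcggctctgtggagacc
Elovl2: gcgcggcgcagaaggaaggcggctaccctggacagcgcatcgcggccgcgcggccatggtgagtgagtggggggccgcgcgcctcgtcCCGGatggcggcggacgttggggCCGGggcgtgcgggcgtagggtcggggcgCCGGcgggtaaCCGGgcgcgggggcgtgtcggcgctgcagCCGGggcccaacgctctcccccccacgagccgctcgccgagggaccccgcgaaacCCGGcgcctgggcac
Tcf7l2: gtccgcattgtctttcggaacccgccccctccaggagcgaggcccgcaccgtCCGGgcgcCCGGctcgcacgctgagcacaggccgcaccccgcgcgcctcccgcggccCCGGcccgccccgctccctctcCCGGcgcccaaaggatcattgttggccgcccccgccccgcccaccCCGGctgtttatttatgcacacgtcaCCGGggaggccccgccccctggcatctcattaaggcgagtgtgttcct
These stretches hold 3 to 6 CCGG each, some only a few bases apart, as in Snai1, where a single base separates a pair. Not every printed CCGG is a site of its cluster, since those with fewer than 10 MspI tags were left out.

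The recovered HpaII tags summed to between 5877080 and 16076961 per liver, and the 3 deepest libraries were all from lingonberry-fed mice. The median core site of these clusters held 15 to 51 tags in a liver and the median edge site 11 to 29. Intervals of tags would cover counting error only, as the PCR reads had no molecular identifiers. No liver was a copy of another, since the correlations of the m-score over these sites lay between 0.683 and 0.809 in the 28 pairs of livers. All SDs and p-values below measure the spread between these 8 livers.

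Core sites were less methylated than edge sites in every liver. The mean core m-score was 71.9, 71.2, 70.3 and 72.8 in the 4 lingonberry livers and 70.2, 69.5, 68.0 and 70.6 in the 4 HFD livers. The mean edge m-score was 61.3, 59.5, 60.9 and 62.5 with lingonberries and 61.3, 61.7, 61.8 and 61.55 without. The 8 core values all lay above the 8 edge values. Core minus edge was 9.27 ± 1.71 (SD, n = 8), from 6.25 to 11.7. As the m-score had chosen the clusters, these levels are a description without a test. On the tags themselves, core sites had 2.65 ± 0.17 HpaII tags per scaled MspI tag and edge sites 2.05 ± 0.024 (SD, n = 8). Members chosen on the HFD livers alone had a core minus edge of 9.97 ± 0.93 in the lingonberry livers (SD, n = 4). Those chosen on the lingonberry livers had 8.56 ± 1.29 in the HFD livers (SD, n = 4). Of the 8845 clusters chosen on the HFD livers, 7990 were also chosen on all 8 livers. Of the 7395 chosen on the lingonberry livers, 7204 were. The choices took largely the same clusters, so this split is no independent check on the selection. The size of core minus edge depended on how sites were joined, with 5.81 for a largest gap of 300 bp and 15.6 for 1000 bp.

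**Figure D1:**
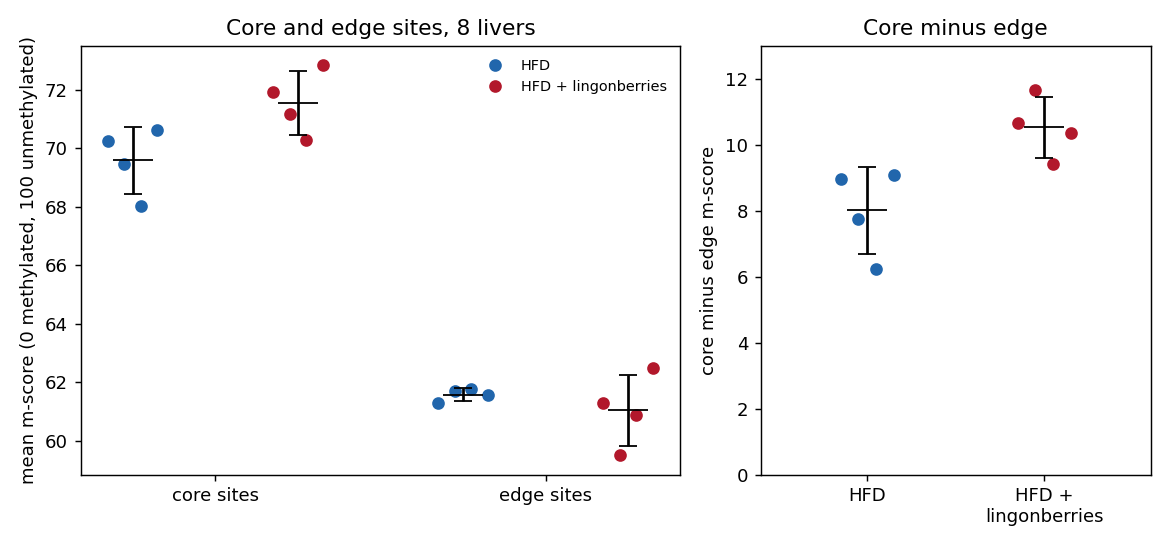
Mean m-score of core and edge sites of the 8189 clusters in each liver (left, vertical axis not starting at 0) and core minus edge (right); points are livers, blue HFD and red HFD with lingonberries, with mean and SD of 4. The core minus edge values of the lingonberry livers, 9.42 to 11.7, sit above those of the HFD livers, 6.25 to 9.09.

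The m-score was lowest at the edge and higher with each of the next few sites. It was 61.3 ± 0.86 at the edge site, 68.6 ± 1.27 at the second site from the nearer end, 71.0 ± 1.51 at the third and 72.1 ± 1.72 at the fourth (SD, n = 8). From the sixth site to the ninth it lay between 73.0 and 73.4. Later positions come from larger clusters only, with 16378 sites at the edge and 764 at the ninth position, and larger clusters had a higher core (68.4 in clusters of 5 sites, 72.1 in those of 16 to 19), so position and size are mixed in this profile. Outside the clusters the first usable site (at least 10 MspI tags), at a median of 1570 bp from the edge site, had 30.9 ± 1.28. The second and the third usable site outside had 30.2 ± 1.03 and 30.4 ± 0.98 (SD, n = 8). Edge sites lay closer to the core than to the usable sites outside, but the rule favours this order, so nothing is read from it. Edge sites count in the mean m-score that chose the clusters, while the sites outside do not and lie more than 500 bp away. Among the first usable sites outside, 52.6% were below 25, against 8.40% of edge sites and 2.07% of core sites. An m-score of 75 or above was reached by 48.5% of core sites and 29.3% of edge sites.

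**Figure D2:**
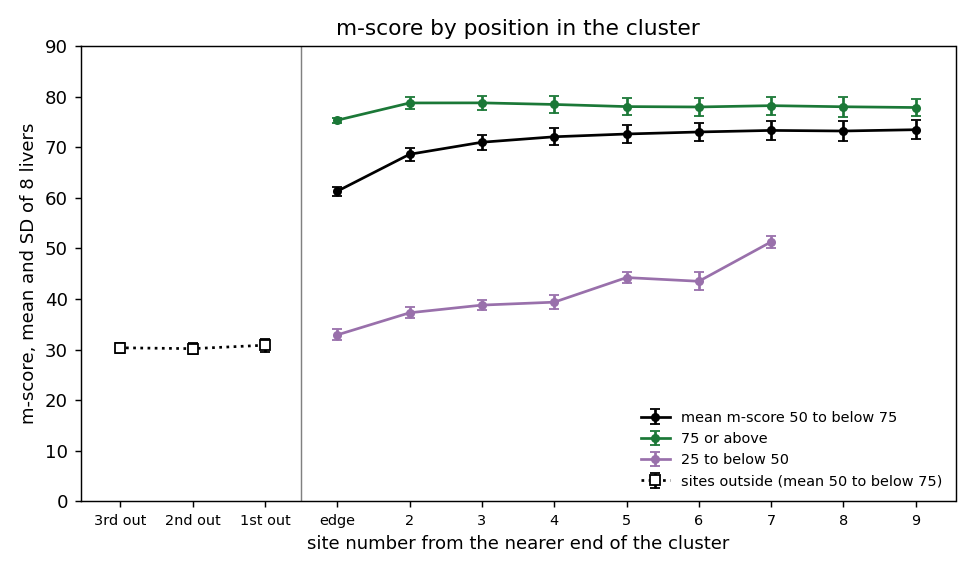
The m-score by site number from the nearer end of the cluster, and of the 3 next usable sites outside (at least 10 MspI tags); points are means over sites and bars the SD of 8 livers, for positions with at least 50 sites. In the clusters described here (black) the score goes from 61.3 at the edge to 73.4 at the ninth site, while the usable sites outside stay near 30.

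Usable sites beyond the edge, all more than 500 bp away by the joining rule, followed their distance from it. The first site outside had 46.6 ± 1.25 up to 750 bp away, 36.8 ± 1.21 from there to 1000 bp, 28.5 ± 1.40 to 2000 bp, 24.1 ± 1.31 to 5000 bp and 20.4 ± 1.56 beyond (SD, n = 8). The edge site itself depended on the gap to its inner neighbour in both directions. It had 68.5 ± 0.88 for gaps of 51 to 100 bp, 56.4 ± 1.70 for gaps above 200 and up to 350 bp and 47.1 ± 2.41 for wider gaps up to 500 bp. Edge sites within 25 bp of their neighbour, 805 in number, had 55.3 ± 1.89, while the neighbours had 67.2. These closely paired edge sites had a median of 18 MspI tags, against 39 for gaps of 26 to 50 bp, and the part of the low MspI tags in their score was not tested. Core sites by the gap to the next core site ranged only from 63.3 to 73.8.

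**Figure D3:**
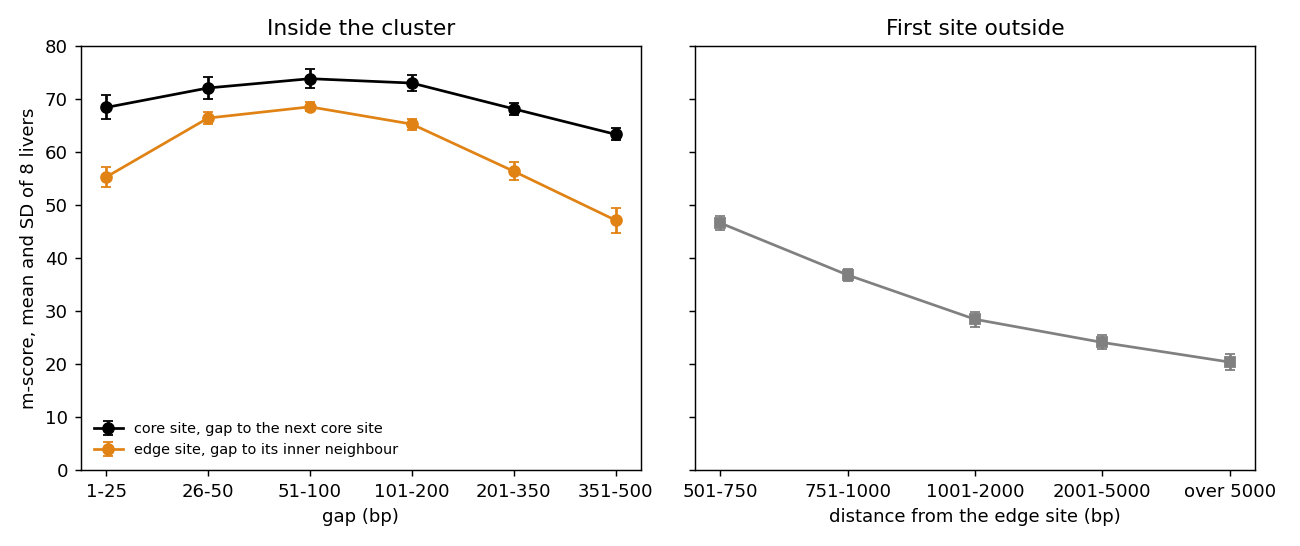
The m-score of edge sites (orange) and core sites (black) by the gap to the neighbouring site, and of the first usable site outside by its distance; points are means and bars the SD of 8 livers. Edge sites range from 47.1 to 68.5 across gaps and lie below core sites in every class of gap.

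Core and edge sites also differed in local density, as a core site had a median of 7 other sites within 500 bp and an edge site 4. Compared at equal numbers of neighbours, a comparison chosen after seeing the data, core minus edge was 4.06. It was 3.66 ± 0.73 at 2 neighbours, 4.47 ± 1.04 at 5 and 3.29 ± 1.34 at 8 (SD, n = 8). The core stayed above the edge in each class from 2 to 12 neighbours.

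Single clusters varied widely around this mean. Over the 8189 clusters the median core minus edge was 8.06, with quartiles of -1.54 and 18.9, against a median of 3.50 over all 20674 clusters. The core lay above the mean of the edge sites in all 8 livers in 3133 clusters (38.3%), where the share among all clusters was 27.8%. The core lay below it in all 8 livers in 748 clusters (9.13%, against 11.1%). As the m-score chose the clusters, nothing is read from these shares. Both edge sites were below the core in 2992 clusters (36.5%), only 1 of them in 3892 (47.5%) and neither in 1305 (15.9%). The lower edge site of a cluster had a mean of 49.01 and the higher one 73.6, and the latter exceeds the core mean of 70.6. Clusters with a single edge site below the core were thus the most frequent shape. Sorting the edge sites of a cluster into lower and higher sets them apart even where the ends do not truly differ. The rule also bounds the cluster mean, so nothing is read from the shares of these shapes. In 584 clusters (7.13%) 1 edge site was below 25 and the other at 75 or above. Fully enclosed cases were rarer, with 32 clusters having both edge sites below 25. No site at all was below 25 in 6110 clusters (74.6%). In genome order the first edge site averaged 61.5 and the last 61.1. Larger clusters had a slightly larger contrast, from 7.82 ± 1.23 in clusters of 5 sites to 10.98 ± 2.06 in those of 16 to 19 (SD, n = 8).

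Clusters of other m-scores or sizes had an edge below the core as well, apart from those below 25, where core minus edge was -1.72 ± 0.36. In the 1050 clusters of 20 or more sites it was 8.60 ± 1.89, near the 9.27 of the members. In the 4510 clusters with a mean of 75 or above the edge site had 75.3 ± 0.52 and the second site 78.7 ± 1.20. In the 2204 clusters from 25 to below 50 the values were 32.9 ± 1.09 and 37.3 ± 1.05 (SD, n = 8). Core minus edge was 3.51 ± 1.33 in the former and 5.39 ± 0.66 in the latter. The mean m-score and the number of sites defined the groups, so their contrasts are not tested against each other. Clusters just inside and outside the bounds of the range had nearly the same mean score, by the rule, and differed in core and edge. The member nearest to 50, on chromosome 3 from 107389067 to 107389808 (mm9), had a core of 45.5 ± 7.77 and an edge of 56.8 ± 7.25. The nearest cluster below 50, on chromosome 7 from 87731630 to 87732915, had a core of 44.3 ± 5.78 and an edge of 64.1 ± 11.3. The member nearest to 75, on chromosome 19 from 45217861 to 45218374, had 78.3 ± 2.82 and 68.5 ± 5.22, and the nearest cluster above it, at the start of Git1 on chromosome 11 from 77306743 to 77307702, had 73.8 ± 3.82 and 82.5 ± 3.29 (SD, n = 8).

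The largest core to edge differences belonged to clusters with both ends well below the core. Among 2027 members with at least 8 sites, a difference of 1 sign in all livers, no shared tags and at least 10 tags per site, the largest value was on chromosome 11 from 116671844 to 116673686 (mm9, 9 sites). Its core was 75.8, 68.0, 75.1 and 72.7 with lingonberries and 74.9, 67.9, 71.1 and 76.3 without. Its edge was 13.8, 3.26, 5.30 and 0 with lingonberries and 12.7, 0, 0 and 20.7 without. Core and edge were thus apart in each liver, by 65.8 ± 5.72 (SD, n = 8). From end to end its sites had 7.67, 54.3, 56.4, 62.0, 81.1, 88.3, 84.1, 83.0 and 6.27, and the drop at the last end lay between the sites 1521 and 1842 bp from the first. Next came chromosome 8 from 108217331 to 108218611 with 64.2 ± 11.6 and chromosome 1 from 134941251 to 134943514 with 64.1 ± 12.6. The latter has 17 sites, and its first edge site had no HpaII tag in any liver, while the next site, 485 bp away, had 77.2 ± 3.30. Chromosome 8 from 74404982 to 74406588 had 62.5 ± 4.29, chromosome 15 from 78003396 to 78005566 had 61.7 ± 7.70 and chromosome 2 from 120802924 to 120803892 had 61.5 ± 8.33 (SD, n = 8). None of these 6 matched a promoter window.

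In the opposite shape, less methylated ends enclosed a more methylated middle. Among the same 2027 members, the lowest core minus edge was on chromosome 19 from 4988865 to 4990209, with a core of 47.6 ± 5.38, an edge of 78.8 ± 3.95 and a difference of -31.2 ± 8.41 (SD, n = 8). Its core sites were uneven, from 22.4 ± 13.3 to 76.7 ± 11.2. The next 2 were on chromosome 17, from 23700928 to 23701763 with -28.3 ± 7.51 and from 12962065 to 12962987 with -26.4 ± 8.69. A member with the most sites, on chromosome 1 from 12980441 to 12983224 (19 sites), had a core of 76.2 ± 2.21 and edge sites of 61.7 ± 5.39 and 30.5 ± 19.6.

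Promoter windows with at least 4 CCGG could be matched, 4373 of 32851. Of these, 2580 matched a single run of sites on the chromosome RefSeq names and 0 a single run on another chromosome. The clusters described here took 1204 of the windows, for 1123 genes in 1039 clusters (12.7%), against 16.3% of the clusters at 75 or above. The matched genes are a CpG-rich subset and not all genes of these clusters. Their windows had a median of 29 CpG in 300 bases and a GC content of 68.3%, close to the 30 and 68.7% in the clusters at 75 or above. The letters GGGCGG, on either strand, stood in 81.0% of the windows of the members, in 79.8% of those of the clusters at 75 or above, in 81.0% of the 4373 windows that could be matched and in 35.7% of all 32851. The letters CCGGAAG, which contain a CCGG, stood in 27.9%, 28.4%, 26.4% and 8.86%, also on either strand. The windows of the members thus had nearly the same shares as all windows with at least 4 CCGG. The 311 core sites within CCGGAAG had 73.2 ± 1.53 and the other core sites of matched windows 73.5 ± 1.78 (SD, n = 8).

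Of 4510 sites in matched windows 91.7% were core sites, against 78.5% of all sites of the members, but a match needs at least 4 CCGG close together, which favours core sites. In 924 of 954 clusters with matched genes on 1 strand only (96.9%) the start lay between the edge sites. The median upstream edge site was at -425.5 bp from the start and the median downstream edge site at 593.5 bp. The m-score was highest in the 100 bp before the start, with 73.9 ± 1.70. It was 57.5 ± 0.98 between 800 and 700 bp before the start and 63.7 ± 0.45 between 800 and 900 bp after it. Edge sites made up 44.9% and 40.4% of the sites at these distances, against 4.93% in the 100 bp before the start. Distance from the start and place in the cluster are thus mixed in this profile. Core sites in a window had 73.5 ± 1.77 and core sites outside it 71.0 ± 1.62, while edge sites in a window had 68.0 ± 0.71 and those outside 61.5 ± 1.05. The ends did not have a fixed order with respect to transcription. The upstream edge site had 63.0 ± 0.77 and the downstream one 62.6 ± 1.04, a difference of 0.39 ± 0.33 (SD, n = 8), and the upstream site was the lower one in 469 clusters and the downstream site in 485.

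**Figure D4:**
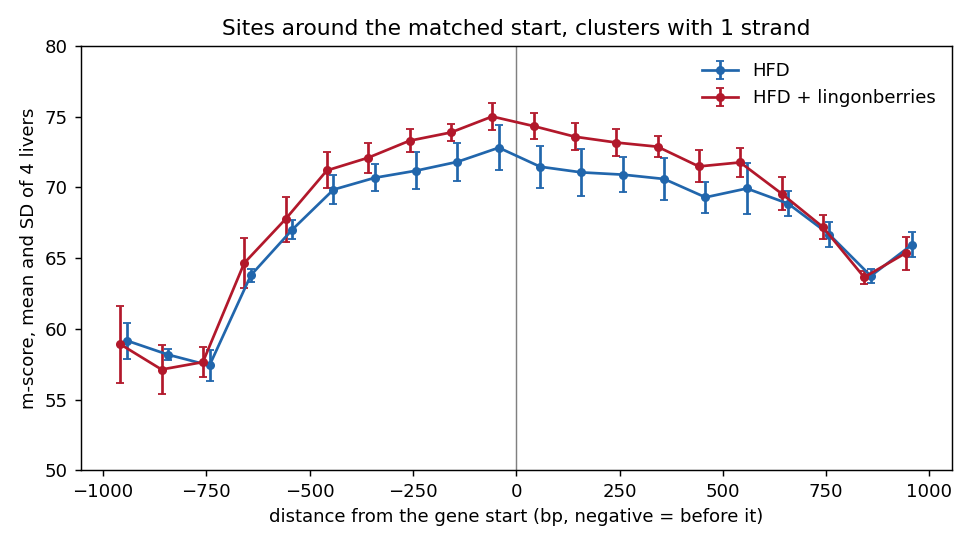
The m-score of cluster sites by distance from the matched gene start, in steps of 100 bp, for HFD (blue) and HFD with lingonberries (red); points are means and bars the SD of 4 livers, and the vertical axis does not start at 0. Both groups are highest in the 100 bp before the start and fall away on both sides, further before the start than after it. Edge sites make up a larger share of the sites far from the start than of those near it.

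Among genes of these clusters, 38 of known function were chosen from the matched list by their roles. They follow no list of the plan, and the counts of their groups are a description. The core lay above the edge in all 8 livers in 14 of their clusters and below it in 4, where the shares among all members were 38.3% and 9.13% and among all clusters 27.8% and 11.1%. For these genes the median core minus edge was 7.83, near the 8.06 of all members. Receptors had a median core minus edge of 14.5 over 5 genes, with 3 above in all livers (38.3% of all members were). Il6ra, the receptor subunit of interleukin-6, had 32.1 ± 9.16 in a cluster on chromosome 3 from 89716601 to 89718123 (mm9, 15 sites). Its upstream edge site, 1003 bp before the start, was 0 in all 8 livers, and the site at -915 bp had 2.81 ± 5.28. At -752 bp the value was 60.4 ± 12.6 and at -601 bp it was 81.2 ± 2.43, so the border lay well upstream of the 5 capitalised sites printed for Il6ra. The downstream edge site had 44.2, 59.2, 79.0 and 72.7 with lingonberries and 76.1, 80.7, 78.1 and 76.7 without. Nr3c2, the mineralocorticoid receptor, had 22.02 ± 7.35, Thrb, a thyroid hormone receptor, 14.5 ± 9.20, and Kdr, the VEGF receptor of endothelial cells, 9.19 ± 9.63. Lifr, the receptor of leukaemia inhibitory factor, had -5.15 ± 6.62 (SD, n = 8).

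Developmental regulators, transcription factors and a growth factor that pattern embryonic tissues, had a median core minus edge of 13.2 over 9 genes, with 6 above in all livers (38.3% of all members were). Snai1, a repressor of epithelial genes, had 26.02 ± 6.06 on chromosome 2 from 167363113 to 167364870 (14 sites). Its downstream edge site, 1173 bp after the start, had 23.6, 9.91, 0 and 41.6 with lingonberries and 0, 0, 16.6 and 25.4 without, while the upstream one, 584 bp before it, had 86.1 ± 6.08. Gata5, a zinc finger factor of endoderm and heart, had 23.4 ± 9.85 on chromosome 2 from 180068507 to 180069545 (18 sites). Its downstream edge site had 22.5, 18.4, 0 and 18.0 with lingonberries and 0, 0, 50.5 and 0 without, from 10 MspI tags, the fewest allowed. The neighbour 15 bp nearer to the start had 71.3 ± 7.30. In the HFD liver at 50.5 core minus edge was 1.57, and in the other livers it was 20.7 to 33.6. Emx2, Irx4, Tlx1 and Hes5 had 20.9 ± 12.2, 18.1 ± 8.13, 13.2 ± 7.59 and 11.9 ± 6.98, and Dlx1, Nkx2-3 and Fgf4 had 7.19 ± 11.1, 0.57 ± 4.14 and -0.015 ± 7.09 (SD, n = 8).

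Lipid genes had a median core minus edge of 3.84 over 10 genes, with 2 above and 2 below in all livers (38.3% and 9.13% of all members were). Mgll, the lipase of monoacylglycerols, had a core of 79.2, 81.6, 84.9 and 84.1 with lingonberries and 83.9, 77.0, 82.2 and 79.8 without, on chromosome 6 from 88674207 to 88674925 (7 sites). Its downstream edge site, 225 bp after the start, had 0, 0, 18.8 and 11.5 with lingonberries and 0, 0, 36.0 and 0 without, and the upstream one 87.9 ± 4.195. Core minus edge was 33.5 ± 5.97, and the methylated end lay close to the start. Acss1, a mitochondrial acetyl-CoA synthetase, had 20.7 ± 5.99, with 35.2 ± 10.9 at its downstream edge site. Lcat, the enzyme that esterifies plasma cholesterol, had 5.42 ± 5.61 upstream and 85.2 ± 2.95 downstream. In Elovl2, which elongates polyunsaturated fatty acids, the core lay below the edge in all 8 livers, by -11.7 ± 3.23, on chromosome 13 from 41315489 to 41316171 (9 sites). Its lowest core site, at -415 bp, had 23.2 ± 17.8 with 13 MspI tags, and the next site, at -409 bp, had 86.0 ± 3.46. Crot, a peroxisomal carnitine acyltransferase, had -9.65 ± 6.14. Dbi, which binds acyl-CoA, the lipoprotein receptor Vldlr, the peroxisomal oxidase Acox3, the phospholipid enzyme Lpcat3 and the citrate lyase Acly had 15.1 ± 14.8, 9.46 ± 8.96, 0.46 ± 6.92, -0.99 ± 4.92 and -6.17 ± 7.10 (SD, n = 8).

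The 6 Wnt and Hippo genes had a median of -1.40. In Tcf7l2, the transcription factor at the end of the Wnt pathway, core minus edge was -11.3 ± 3.76 on chromosome 19 from 55816015 to 55816345 (8 sites). The lowest of its sites was the last CCGG printed above, 48 bp before the start, with 53.4 ± 11.2, between a site at 119 bp with 61.8 ± 21.5 and the edge site 43 bp after the start with 80.3 ± 6.40. Yap1, the coactivator at the end of the Hippo pathway, had 19.1 ± 14.4, with an upstream edge site at 44.2, 18.4, 49.2 and 33.6 with lingonberries and 74.2, 77.7, 78.1 and 50.1 without. The 2 groups do not overlap at that site, which is 1 of many edge sites and was picked after its values were seen. Wnt10b, a ligand, had 4.23 ± 6.65, the transducers Dvl1 and Dvl3 had 0.50 ± 6.09 and -8.74 ± 6.46, and Ctnnb1, the gene of beta-catenin, had -3.30 ± 3.37. Of NF-kappaB and inflammation genes, Tgfb1 and Bcl3 had 17.8 ± 9.61 and 11.6 ± 5.52, Irf5 and Nfkb2 had 8.44 ± 6.46 and 1.80 ± 5.26, and Rela, the main activating subunit, had -8.71 ± 2.37, below the edge in all livers. The genes that maintain methylation, Dnmt1, its partner Uhrf1 and the remodelling factor Hells, had -1.35 ± 5.79, 12.04 ± 10.5 and -4.70 ± 7.32 (SD, n = 8).

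**Figure D5:**
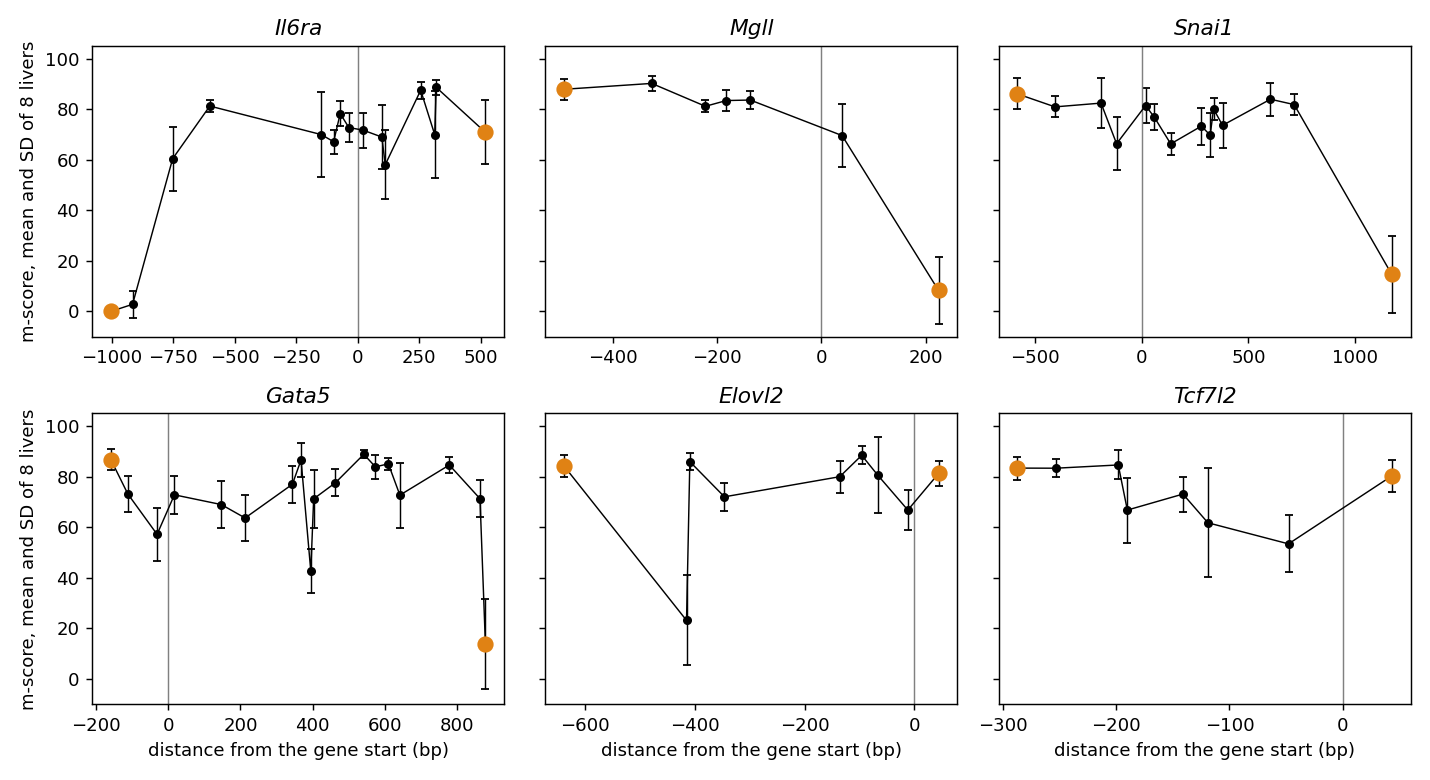
The m-score of every site of 6 clusters by distance from the gene start; points are means and bars the SD of 8 livers, and orange points are edge sites. Il6ra has 0 at its upstream edge and Mgll, Snai1 and Gata5 have 8.28 to 14.6 at their downstream edge, while the edges of Elovl2 and Tcf7l2 lie between 80.3 and 84.2.

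With lingonberries the core m-score had the higher mean and the edge m-score the lower one, and no measure passed its correction. The diet was not used to choose the clusters, so it could be tested. Core m-score was 71.6 ± 1.09 with lingonberries and 69.6 ± 1.16 without (SD, n = 4), a difference of 1.97 (two-sided exact permutation test, p = 0.0571, adjusted p = 0.0857 over 3 measures). Edge m-score was 61.0 ± 1.22 and 61.6 ± 0.22, a difference of -0.54 (exact p = 0.543, adjusted p = 0.543). The sign of the edge difference was not stable, as it was 0.193 to 0.510 under 4 of 12 other settings. With 1 liver left out it stayed negative, from -1.02 to -0.030, the latter without lingonberry replicate 2. Core minus edge was 10.5 ± 0.93 and 8.02 ± 1.32, a difference of 2.51 ± 0.81 (SE). Its values were 10.7, 11.7, 9.42 and 10.4 with lingonberries and 8.97, 7.76, 6.25 and 9.09 without, and the groups did not overlap. The exact p was 0.0286, the smallest that 4 against 4 livers allow, and the adjusted p was 0.0857. A measure that alone among the 3 has this smallest p cannot adjust below 0.0571, however far apart the groups lie. An adjusted 0.0429 needs another of the 3 measures at the smallest p too, so passing or failing is no gauge of the size of a difference. Counted as log2 HpaII tags per 1e6 tags, which leaves the MspI reference out, core sites differed by 0.14 ± 0.044 (SE, exact p = 0.0286, adjusted p = 0.0857), edge sites by 0.014 ± 0.012 (exact p = 0.286, adjusted p = 0.286) and their ratio by 0.13 ± 0.044 (exact p = 0.0571, adjusted p = 0.0857). With libraries thinned to the shallowest, the core minus edge difference was 2.63, and at equal numbers of neighbours it was 1.49 (exact p = 0.0571). Within the HFD livers core minus edge rose with library depth, from 6.25 at 5877080 tags to 9.09 at 7428108. The shallowest lingonberry library, with 6121989 tags, had the lowest value of its group, 9.42. The deepest libraries were all from lingonberry livers, so depth and diet are partly mixed. Thinning evens out tag numbers and not other differences between libraries. The tag results passed, at an adjusted exact p of 0.0429, under some other ways of building the clusters and without lingonberry replicate 3.

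The difference varied with position within the cluster. It was -0.54 at the edge site, 1.56 at the second site, 2.00 at the third and 2.86 at the ninth. Around gene starts it was 2.87 in the first 100 bp after the start and -1.05 between 900 and 800 bp before it, where 3.17% and 47.7% of the sites were edge sites. By the inner gap, edge sites differed by 1.61 for gaps of 26 to 50 bp, -3.06 for those above 350 bp and -2.87 for gaps of up to 25 bp. By the number of neighbours, core sites went from -0.18 at 2 neighbours to 2.63 at 9, and edge sites from -1.13 to 0.41. These values are a description without tests. In the promoter sets, core sites in a window differed by 2.48 (exact p = 0.0571, adjusted p = 0.20 over 7) and edge sites outside it by -0.83 (exact p = 0.314, adjusted p = 0.433).

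The other classes had core minus edge differences of the same sign. In the clusters at 75 or above core minus edge differed by 1.94 (exact p = 0.0286, adjusted p = 0.0857), and in those below 25 by 0.57 (exact p = 0.0286, adjusted p = 0.0429 over 3). The members exceeded the clusters at 75 or above by 0.58 and those from 25 to below 50 by 1.65, each with an exact p of 0.0286 and an adjusted p of 0.0857 over 6 tests. On the log2 ratio of core over edge tags the same 2 comparisons gave 0.0071 (exact p = 0.371, adjusted p = 0.446) and 0.055 (exact p = 0.0857, adjusted p = 0.129). On the core m-score alone they gave 0.094 (exact p = 0.657, adjusted p = 0.657) and 2.00 (exact p = 0.0857, adjusted p = 0.129). Clusters of 20 or more sites differed in core minus edge by 2.61 (exact p = 0.0286, adjusted p = 0.0857), and their difference from the members was not tested. In the clusters below 25 the core m-score differed by -0.50 (exact p = 0.171, adjusted p = 0.171). The edge m-score of the clusters below 25 differed by -1.07 (exact p = 0.0286, adjusted p = 0.0429), so both were lower with lingonberries. In all, 46 exact tests were computed on these livers, and 111 more under other settings or with a liver left out.

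No single cluster passed. Of 20674 clusters 0 were called on the cluster mean (0%, limma, adjusted p below 0.05, smallest 0.604), and 1691 had an unadjusted p below 0.05 (8.18%), among them 718 of the 8189 members (8.77%). On core minus edge 0 were called as well (0%, limma, smallest adjusted p 0.783), with 1300 below 0.05 unadjusted (6.29%) and 601 members (7.34%). Of the members with an unadjusted p below 0.05 on the mean, 642 were higher with lingonberries (7.84%, against 6.32% of all clusters) and 76 lower (0.928%, against 1.86%). For core minus edge the groups did not overlap, with higher values under lingonberries, in 258 members (3.15%), where the share of all clusters was 2.70%, and with lower values in 53 (0.647%, against 0.851%).

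On the cluster mean, members did not overlap with higher values in 373 cases (4.55%, against 3.88% of all clusters) and with lower values in 37 (0.452%, against 0.963%). Unadjusted on core minus edge, 507 members were higher (6.19%, against 4.85%) and 94 lower (1.15%, against 1.44%).

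The members with the smallest p are given as values, as none was called. On the cluster mean, the Lifr cluster (chromosome 15, 7078776 to 7080256) stood at 77.4, 74.5, 76.3 and 77.3 with lingonberries and 66.3, 68.2, 67.3 and 70.5 without, a difference of 8.29 ± 1.62 (SE, limma adjusted p = 0.604). The highest HFD liver lay below the lowest lingonberry liver. A cluster of 5 sites on chromosome 8 from 124820433 to 124820793 differed by 9.35 ± 1.81, and one on chromosome 10 from 116812888 to 116813840 by 8.42 ± 1.602. In the other direction, the clusters on chromosome 2 from 27395685 to 27396030, chromosome 9 from 35381936 to 35382178 and chromosome 5 from 116018597 to 116019536, all of 5 sites, differed by -8.11 ± 1.77, -9.94 ± 2.55 and -8.02 ± 2.09 (SE, limma adjusted p = 0.604 for each). On core minus edge, the cluster on chromosome 1 from 192735394 to 192735804 had a lingonberry mean of -7.56 ± 2.09 against -30.0 ± 2.96 in HFD livers. On chromosome 13, from 109906460 to 109907529, the means were 27.0 ± 3.87 and 3.91 ± 5.61. The cluster on chromosome 16 from 32877624 to 32879420, matched to Fyttd1 and Rubcn, had 9.16 ± 3.74 and 33.0 ± 6.51, and that on chromosome 4 from 129583339 to 129583848 had 12.4 ± 4.53 and 44.2 ± 12.9, from a mean of 9.25 tags per site. All 4 have an adjusted p of 0.783 in limma (SD, n = 4).

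Of the 38 genes, 0 were called by diet and 37 had a higher cluster mean with lingonberries, with a median difference of 2.27. Among all 8189 members 73.2% had a higher mean, with a median difference of 1.49, and among all clusters 65.9%. A higher mean was thus the more frequent direction in the background too. The share among the 38 genes was larger. They were picked by role after the matching was seen, so nothing is read from that share. Lpcat3, which remodels membrane phospholipids, had 77.3, 75.5, 74.4 and 75.1 with lingonberries and 68.2, 70.5, 65.3 and 71.0 without, a difference of 6.80 (limma adjusted p = 0.604). Hells was the exception with 65.2 ± 0.96 against 67.1 ± 2.50 in HFD livers (SD, n = 4; adjusted p by limma 0.787).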

How the data were processed

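HELP-tagging of liver DNA gave 1 deposited file per liver, with a score (m-score) and a signal (conf) per HpaII site, per the file headers. The sources used here do not give the authors' aligner and filters; per the submitters' processing notes the build is mm9 and CASAVA was used. Judged by its values, m-score is an angle set by MspI and HpaII tags and conf the length of that vector, so HpaII tags were recovered as their sine part (96.1% to 97.0% whole within 0.02) and MspI tags as the cosine part. The MspI reference was scaled to each library, so the m-score is relative within a liver.

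Members, lists and tests were chosen with earlier results of these data known. A liver's value is the mean over clusters of their core or edge mean. Groups were compared with exact permutation tests over 70 assignments with Benjamini-Hochberg adjustment, and single clusters with limma 3.58.1 (R 4.3.3, mean trend) over 20674 clusters, some of which have no spread and had their variance offset by limma. Scripts were tested on simulated data. The matching of RefSeq windows by CCGG spacing was added after the files were seen and departs from the plan to name genes only from a table of the files' build. Regions were named by a fixed rule (6 largest and 3 lowest core minus edge, smallest limma p, nearest to the bounds, most sites). Of the gene lists of the plan, 1 of 16 liver transcription factors and 0 of 23 metabolic genes could be matched to any cluster. The same held for 3 of 51 developmental genes and 0 of 15 housekeeping genes, and 0 of each list matched a member. Most genes of these lists could not be placed, so their absence from the members is not shown. The 38 described genes were picked by role after the matching was seen and support nothing. Alternatives covered the MspI minimum, the gap, the edge width, shared tags, depth, weighting and each liver left out.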

Additional observations from a re-analysis of the deposited data

Results flagged for a closer look

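Among 136 groups of 4 livers looked at, 7 had a liver far from the other three, where chance at 1 in 20 gives 6.8. The core tags of the members in the lingonberry group had a low liver at 17.71 log2 tags per 1e6 (nearest 17.79). The cluster mean was far from the others at Acly (74.0, nearest 72.4) and Tcf7l2 (80.4, nearest 74.4) in 1 lingonberry liver each, and at Rela (66.5, nearest 74.1) and Snai1 (69.5, nearest 71.7) in 1 HFD liver each. The same held for the cluster on chromosome 1 from 134941251 in a lingonberry liver (69.6, nearest 66.2) and that on chromosome 2 from 120802924 in an HFD liver (61.2, nearest 67.6).

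The diet difference was larger at core than at edge sites of the members by 2.51 (exact permutation test, p = 0.0286). In core minus edge, the members differed by diet more than the clusters at 75 or above, by 0.58, and more than those from 25 to below 50, by 1.65 (exact permutation test, p = 0.0286 for each). None of the 3 passed its correction (adjusted p = 0.0857 each). With so few livers, a result at this smallest exact p passes only when others of its family reach it as well. On the core over edge tag ratio the last 2 comparisons gave 0.0071 (exact p = 0.371) and 0.055 (exact p = 0.0857). Clusters of 20 or more sites, at 2.61, were not tested against the members.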

How the results depend on the processing

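The m-score differences by diet for core sites and for core minus edge kept their direction in all 12 alternatives that kept the 8 livers, from 1.26 to 2.43 and from 1.49 to 2.92, none past the adjusted threshold. The edge difference reversed to 0.368 with 20 MspI tags, 0.365 with a gap of 300 bp, 0.510 with edges of 2 sites and 0.193 with the angle of summed tags. On tags, the edge difference reversed to -0.0019 with 5 MspI tags and -0.019 with a gap of 1000 bp. The core tag difference passed (adjusted exact permutation p = 0.0429) with 5 MspI tags (0.14), 20 MspI tags (0.15), gaps of 300 bp (0.15) and 1000 bp (0.13), edges of 2 sites (0.15) and members of 10 or more sites (0.15, added after seeing the data). The edge tag difference passed with 20 MspI tags (0.048), a gap of 300 bp (0.052) and edges of 2 sites (0.075), and the core over edge ratio with 5 MspI tags (0.14), a gap of 1000 bp (0.15) and members of 10 or more sites (0.15). Passing at 0.0429 required another tag measure of the same setting at the smallest exact p as well. The causes were not tested. Core minus edge itself moved to 6.84 with 20 MspI tags, 5.81 and 15.6 with gaps of 300 and 1000 bp, 6.55 with edges of 2 sites, 5.82 with the angle of summed tags and 4.06 at equal neighbour numbers (added after seeing the data).

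Leaving out 1 liver at a time gave 1.45 to 2.40 for core, -1.02 to -0.030 for edge and 1.92 to 2.88 for core minus edge by diet. On tags it gave 0.11 to 0.16 for core, 0.0058 to 0.023 for edge and 0.095 to 0.15 for the ratio, and core minus edge without diet was 8.93 to 9.70. Without lingonberry replicate 3 core tags (0.16) and the ratio (0.15) passed at an adjusted exact p of 0.0429. No cluster was called by limma in any of these fits (0 to 0 on either measure, with 1184 to 2051 clusters on the mean and 1057 to 1443 on core minus edge at an unadjusted p below 0.05), nor in the fits with other settings (1309 to 2235 and 804 to 1888 unadjusted).

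No paired analysis was possible because the labels number the livers in a single series over both groups, and the replicate numbers used here only name livers within a group. Edge sites held fewer tags than core sites (median 11 to 29 against 15 to 51 per liver), and 2.64% to 5.42% of them had no tag in a liver, against 0.46% to 1.24%. Methylation and low depth cannot be told apart at a site without a tag.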

Other observations

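Sites with 3 to 9 MspI tags, which had no part in building or choosing the clusters, lay in the same order. Their places are defined by clusters chosen on the m-score of the sites around them, so the order is no independent check. The 4234 such sites between core sites had 76.7 ± 2.14, the 1045 between the outermost pairs of sites 71.9 ± 1.93 and the 2452 within 500 bp outside an edge site 58.5 ± 2.77 (SD, n = 8). By diet they differed by 2.04, 1.57 and -0.72 (exact permutation test, adjusted p = 0.557, 0.557 and 0.857 over 3). Such a site stood just outside an edge in 2016 of the 8189 clusters (24.6%), so an edge site is the end of the usable sites and not always of the unmethylated stretch.

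On all 19 autosomes the core lay above the edge, from 7.20 ± 2.04 on chromosome 13 to 11.4 ± 1.40 on chromosome 16 (SD, n = 8). The core minus edge difference by diet was above 0 on each of them, from 1.85 on chromosome 16 to 3.10 on chromosome 9, in the same 8 livers.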
